A study of Homo sapiens with 15 samples.

Results

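The genes described here encode thrombospondins, tenascin-C and other matricellular proteins, taken by name from the table of read counts per gene of MDA-MB-231 breast cancer cells. The list held 10 genes, THBS1, THBS2, THBS3, THBS4, TNC, FN1, SPARC, SPP1, FBLN1 and POSTN. Of these, 9 were among the 18858 genes of the table, and POSTN, which encodes periostin, had no row in it and was not analysed here.

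Matricellular proteins are secreted into the matrix around cells, where they act less as scaffolding than as signals that change how cells hold on to it. Thrombospondins and tenascin-C loosen or redirect cell adhesion, bind integrins and other surface receptors, and are laid down strongly in wounds and in the stroma of breast tumours. Fibronectin (FN1) is the adhesive glycoprotein on which many of them assemble, while SPARC and fibulin-1 (FBLN1) bind collagens and basement membrane proteins and osteopontin (SPP1) is a phosphorylated integrin ligand. YAP and TAZ are the transcriptional co-activators at the end of the Hippo pathway. They do not bind DNA themselves and act largely through TEAD factors, and matrix genes are among those they are known for.

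MDA-MB-231 is a human line from a triple-negative breast adenocarcinoma. The 5 groups of 3 libraries each were Control, which was untransfected, siControl, which received a non-targeting siRNA pool, and siYAP, siTAZ and siYAP+TAZ, which received pools against YAP1, against WWTR1 (the gene of TAZ) or against both. RNA was taken after 48 h of knockdown and a further 5 to 6 h on gelatin-coated plates. Co-transfected cells received both pools and so more siRNA in total than either single knockdown, and the effect of the amount cannot be told apart from that of the second target. Libraries carry running numbers from 16 to 30 and are named by group and number.

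Sequencing depth ranged from 18696737 to 30107312 counts per library (median 22902846). WWTR1 was at 1579 to 1995 normalized counts in siControl, 254 to 828 in siTAZ and 1123 to 1284 in siYAP+TAZ. YAP1 was at 4202 to 4431 normalized counts in siControl, at 1013, 2764 and 761 in siYAP libraries 18, 23 and 28, and at 1796 to 2240 in siYAP+TAZ, so siYAP library 23 kept more YAP1 than the other siYAP libraries and siYAP+TAZ kept more WWTR1 than siTAZ. Compared with siControl, WWTR1 had a log2 fold change of -1.74 in siTAZ (adjusted p = 0.019 by edgeR) and -0.62 in siYAP+TAZ (adjusted p = 0.20). YAP1 had -1.51 in siYAP (adjusted p = 0.099) and -1.06 in siYAP+TAZ (adjusted p = 0.072). At an adjusted p of 0.05 only WWTR1 in siTAZ passed. Of the markers of the line, VIM, CD44, AXL, KRT8 and KRT18 reached at least 207 counts scaled to library size (CPM) in every library, PGR stayed at or below 0.352 CPM, EPCAM lay between 10.3 and 17.2 CPM, and ESR1 and CDH1 had no row in the table.

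The 9 genes lie on different chromosomes except for THBS4 and SPARC. In GRCh38 with the GENCODE 44 annotation, THBS1 is a protein-coding gene on the plus strand at chr15:39581079-39599466, TNC is on the minus strand at chr9:115019575-115118207, and FN1 is on the minus strand at chr2:215360440-215436073. THBS2 is on the minus strand at chr6:169215780-169254050 and THBS3 on the minus strand at chr1:155195588-155209051. Exons of genes on the opposite strand cover 31.3% of the exon bases of THBS2 and 29.1% of those of THBS3. They cover only 7.58% of the exon bases of THBS1 and 1.35% of those of TNC, and none of FN1. Whether counting used the strand is not given in the sources used here, so reads of such partners could be included. MTX1, the partner of THBS3 with counts in the table, had group means between 275 and 333 normalized counts and did not pass the test in siYAP+TAZ compared with siControl (log2 fold change of -0.06, SE 0.10, adjusted p = 0.77 by edgeR).

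RefSeq promoter windows of GRCh38.p14, read from 250 bases before the start of each gene, were searched on both strands for the core letters of the TEAD site, GGAATG, for the AP-1 letters TGANTCA and for the CArG box. The TEAD letters were found in THBS1, THBS2 and SPARC, and also in 14% of all 27305 promoters. TNC, FN1, FBLN1, THBS3, THBS4 and SPP1 held none of the 3 motifs, the AP-1 letters were found only in the POSTN window among the 10 genes and in 7.76% of all promoters, and the CArG box was in none of the 10 and in 1.29% of all. A match is a description of letters and not evidence of binding. The 250 bases before the start of THBS1 and the first 200 bases of the TNC window are shown because these genes changed in opposite directions in the co-knockdown, and the short stretches of THBS2 and SPARC because they hold the matching letters. The stretch of TNC ends before the bases nearest its RefSeq start, which lie within the gene in GENCODE 44. The stretches of THBS2 and SPARC lie before the RefSeq start but within the gene in GENCODE 44, whose starts are further upstream, and distances are counted from the RefSeq start. Capitals mark the TEAD letters read on either strand, and each sequence runs 5′ to 3′ on the strand of its gene. THBS1 is shown from chr15:39580829-39581078 (plus strand), TNC from chr9:115118208-115118407 (minus strand), THBS2 from chr6:169253926-169253955 (minus strand) and SPARC from chr5:151686916-151686945 (minus strand).
THBS1: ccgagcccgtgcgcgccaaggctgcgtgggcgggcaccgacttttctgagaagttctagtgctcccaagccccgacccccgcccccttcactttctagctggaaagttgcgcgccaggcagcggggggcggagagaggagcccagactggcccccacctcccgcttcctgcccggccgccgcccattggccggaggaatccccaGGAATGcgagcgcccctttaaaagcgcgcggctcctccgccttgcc
TNC: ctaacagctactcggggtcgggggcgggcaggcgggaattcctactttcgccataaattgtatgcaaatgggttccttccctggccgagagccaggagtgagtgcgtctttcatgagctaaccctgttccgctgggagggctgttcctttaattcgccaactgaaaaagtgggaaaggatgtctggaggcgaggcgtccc
THBS2: tgatgtCATTCCttcgaaGGAATGaattaa
SPARC: ctaaacccctccaCATTCCcgcggtccttc

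In the THBS1 window the letters lie 46 to 41 bases before the start. In THBS2 a match on the strand opposite to the gene lies 103 to 98 bases before the RefSeq start and a match on the strand of the gene 91 to 86 bases before it. In SPARC the match is on the strand opposite to the gene, 17 to 12 bases before the RefSeq start. The stretch of TNC has no such letters.

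The members differed widely in level. On the TPM scale, which divides counts by exon length and sets every library to the same total, THBS1 stood at 909 ± 130 TPM (SD, n = 3) in siControl and was the 97th highest of the 15574 genes with a known length. FN1 followed at 137 ± 25.6 TPM and TNC at 47.4 ± 9.11 TPM, in positions 1350 and 3698. The other members were far lower, with FBLN1 at 2.22, THBS3 at 1.40, SPARC at 0.789, THBS2 at 0.289, THBS4 at 0.0581 and SPP1 at 0.0363 TPM. The RNA of these genes in these cells was therefore mostly THBS1, FN1 and TNC. Lengths are those of all annotated exons of a gene merged, which lowers this level for genes with many isoforms such as FN1.

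**Figure D1:**
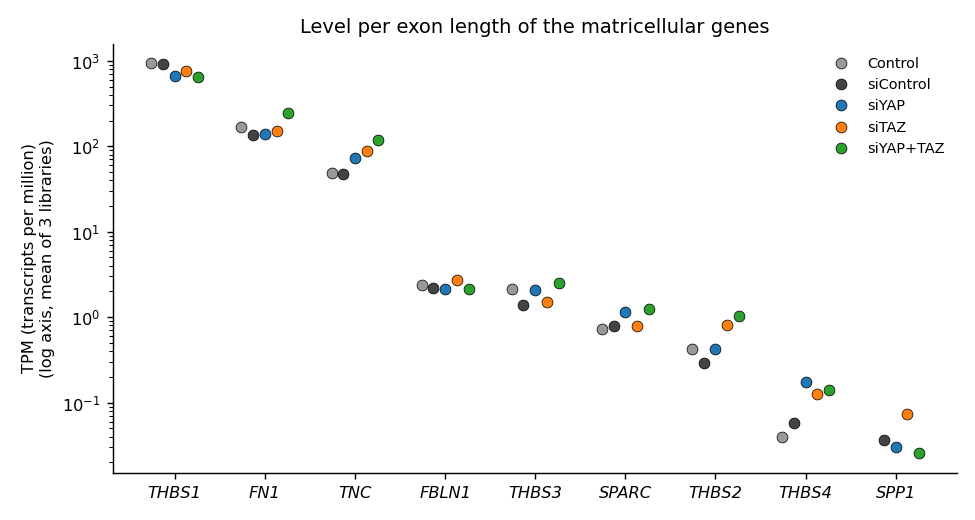
Level of each matricellular gene per exon length, in TPM on a log axis, with 1 point for the mean of the 3 libraries of each group. THBS1, FN1 and TNC stand above 40 in every group and the other genes below 3, and SPP1 in Control is not drawn because its value was 0.

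THBS1 encodes thrombospondin-1, a trimeric glycoprotein that binds CD36, CD47 and integrins, restrains angiogenesis and activates latent TGF-beta. Normalized counts of THBS1 were 52201, 50577 and 46871 in siControl libraries 17, 22 and 27. They were 36129, 36484 and 32213 in siYAP, 41821, 42407 and 37991 in siTAZ, and 33096, 36637 and 31604 in siYAP+TAZ. Every library of every knockdown lay below every siControl library, and the siTAZ libraries lay between siControl and siYAP without touching either. Control gave 59767, 47295 and 48786 and overlapped siControl. In RNA of whole cultures, less RNA per cell and fewer cells with the RNA cannot be told apart. THBS1 fell by 32.3% in siYAP+TAZ (log2 fold change of -0.56, SE 0.09, adjusted p = 3.2e-04 by edgeR) and by 30.0% in siYAP (-0.51, SE 0.09, adjusted p = 0.011). In siTAZ the log2 fold change was -0.29 (SE 0.09, 95% interval -0.48 to -0.10), with an adjusted p of 0.11 that did not pass, while against Control it was -0.35 and passed (adjusted p = 0.042). By edgeR with a block for the run of library numbers THBS1 in siTAZ passed as well (adjusted p = 0.0054), but not with a library left out (0.10 to 0.30). The call in siYAP was lost when siControl library 17, siControl library 22 or siYAP library 28 was left out (adjusted p of 0.074, 0.052 and 0.075), and without siYAP library 23, which kept the most YAP1, the log2 fold change was -0.53 (adjusted p = 0.030). siYAP+TAZ and siYAP overlapped and differed by -0.05 on the log2 scale (95% interval -0.24 to 0.14, adjusted p = 0.84).

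**Figure D2:**
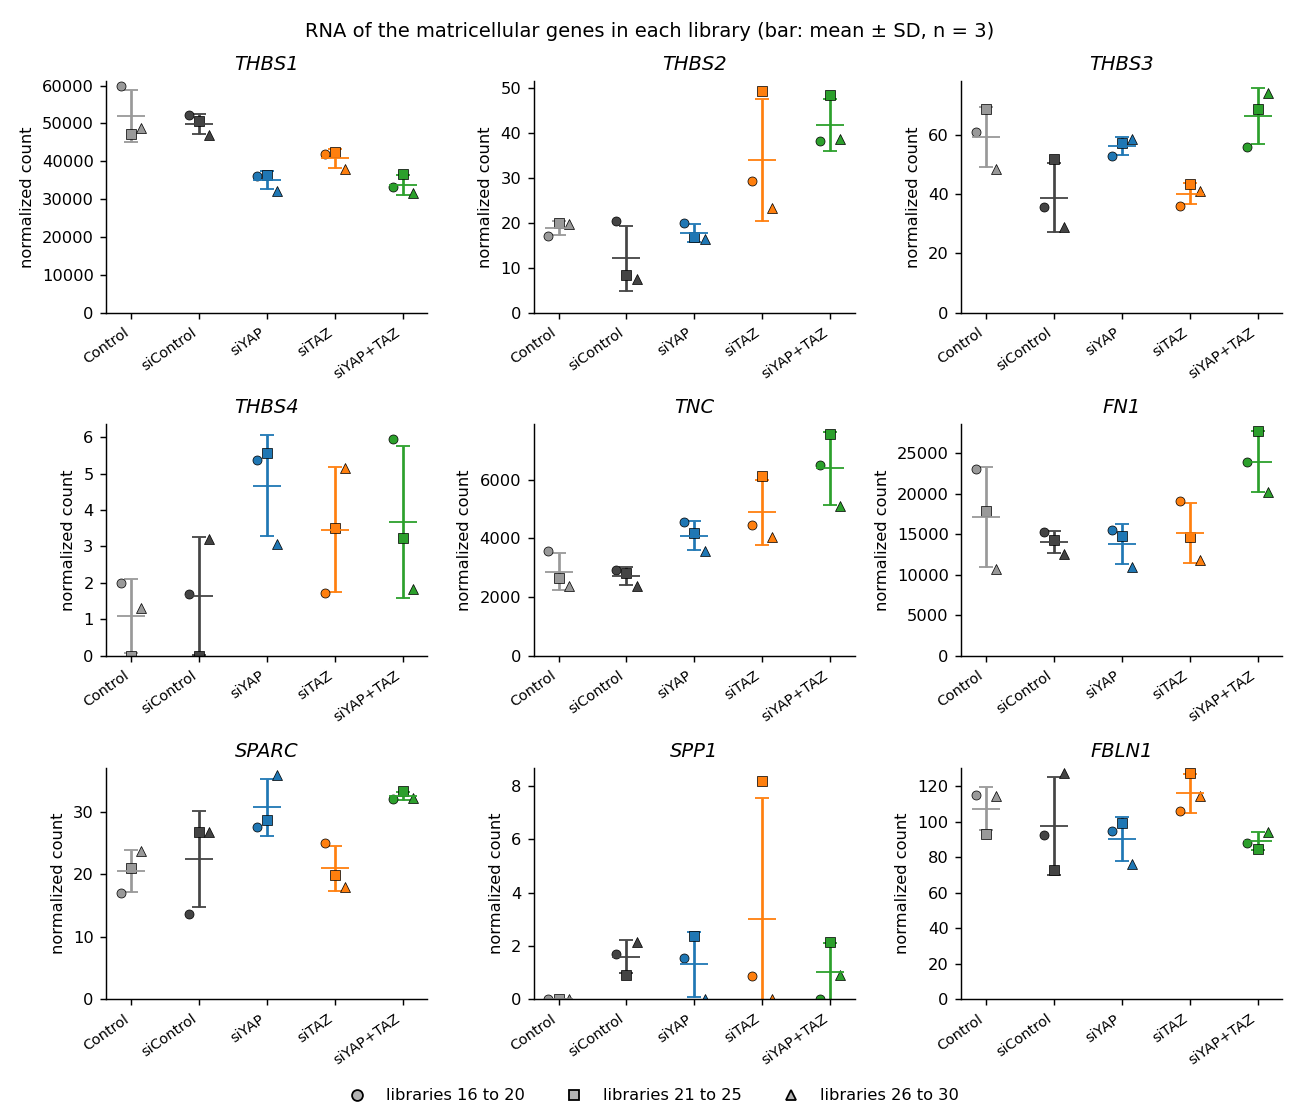
Normalized counts of the 9 genes in each of the 15 libraries, with the group mean and SD (n = 3, bars cut at 0) and symbols for the runs of library numbers. THBS1 was lower and TNC higher than siControl in every library of the 3 knockdowns, and FN1 was higher than siControl only in the siYAP+TAZ libraries as a group (20241 to 27743 against 12529 to 15299).

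TNC encodes tenascin-C, a six-armed glycoprotein that competes with fibronectin-based adhesion and marks invasive fronts and metastatic niches of breast cancer. The siControl libraries held 2937, 2829 and 2372 normalized counts of TNC and the Control libraries 3571, 2645 and 2380. Its counts were 4541, 4175 and 3578 in siYAP, 4461, 6140 and 4045 in siTAZ, and 6502, 7549 and 5088 in siYAP+TAZ. All 9 knockdown libraries were above all 6 control libraries, narrowly so for siYAP library 28 (3578) and Control library 16 (3571), the knockdowns overlapped their neighbours in the order siYAP, siTAZ and siYAP+TAZ, and siYAP+TAZ lay wholly above siYAP. TNC rose 2.35-fold in siYAP+TAZ compared with siControl (log2 fold change of 1.23, SE 0.20, adjusted p = 8.5e-04 by edgeR) and 1.80-fold in siTAZ (0.85, SE 0.19, adjusted p = 0.047). In siYAP it was 0.60 higher on the log2 scale (SE 0.19, 95% interval 0.17 to 1.02) with an adjusted p of 0.21. This passed with DESeq2 (0.042), and by edgeR with a block for the run of library numbers (0.027) or only the groups compared (0.031). With any library left out it did not pass (adjusted p of 0.30 to 0.47). The siTAZ call was not stable, since it was lost without siControl library 17, 22 or 27 or siTAZ library 24 (adjusted p of 0.11, 0.14, 0.12 and 0.22) and against Control (0.77, adjusted p = 0.051), while in siYAP+TAZ the adjusted p stayed between 6.1e-04 and 0.0054 whichever library was left out.

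THBS2 encodes thrombospondin-2, a close relative of thrombospondin-1 that shares its receptors and is made largely by fibroblasts. It was scarce, with 20.4, 8.32 and 7.51 normalized counts in siControl, 17.0, 19.8 and 19.7 in Control and 19.9, 16.7 and 16.4 in siYAP. It stood at 29.3, 49.2 and 23.1 in siTAZ and at 38.1, 48.3 and 38.5 in siYAP+TAZ. The libraries in which TAZ was targeted were thus all above those in which it was not, and siTAZ and siYAP+TAZ overlapped. THBS2 rose 3.34-fold in siYAP+TAZ (log2 fold change of 1.74, SE 0.34, adjusted p = 0.0015 by edgeR) and 2.71-fold in siTAZ (1.44, SE 0.35, adjusted p = 0.039), and it was also higher in siYAP+TAZ than in siYAP (1.22, SE 0.32, adjusted p = 0.032). In siYAP compared with siControl the log2 fold change was 0.52 (SE 0.37, adjusted p = 0.65). Without siControl library 17, the siControl library with the most THBS2, the log2 fold change was 2.38 in siYAP+TAZ (adjusted p = 4.2e-04) and 2.07 in siTAZ (adjusted p = 0.025), and against Control it was 1.14 in siYAP+TAZ (adjusted p = 0.021). Its raw counts lay between 7 and 45, and the siTAZ call was lost without siControl library 22 or 27 or siTAZ library 24 (adjusted p of 0.19, 0.11 and 0.28) and against Control (log2 fold change of 0.85, adjusted p = 0.18). The call in siYAP+TAZ compared with siYAP was lost whichever of the 6 libraries was left out.

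THBS3 and THBS4 encode the pentameric thrombospondins, which lack the antiangiogenic repeats of the trimeric forms and are best known from cartilage, tendon and muscle. Normalized counts of THBS3 were 35.7, 51.8 and 29.0 in siControl, 52.9, 57.2 and 58.5 in siYAP, 36.2, 43.4 and 41.1 in siTAZ, and 55.9, 68.8 and 74.3 in siYAP+TAZ. siYAP+TAZ and siYAP lay above all siControl libraries, but Control, at 60.9, 68.8 and 48.6, overlapped both. THBS3 rose 1.70-fold in siYAP+TAZ compared with siControl (log2 fold change of 0.77, SE 0.22, adjusted p = 0.018 by edgeR). Compared with Control the log2 fold change was 0.16 (adjusted p = 0.66). The call was also lost without siControl library 17 or 27 or siYAP+TAZ library 25 or 30 (adjusted p of 0.073, 0.082, 0.053 and 0.070). THBS4 had at most 7 reads in any library, from 0 to 3.21 normalized counts in siControl and from 1.83 to 5.94 in siYAP+TAZ, and no fold change is given for it.

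FN1 encodes fibronectin, which cells assemble into fibrils through integrin alpha-5 beta-1. The siControl libraries held 15299, 14309 and 12529 normalized counts of FN1, the siYAP libraries 15595, 14760 and 11023, and the siTAZ libraries 19105, 14628 and 11844. Its counts were 23899, 27743 and 20241 in siYAP+TAZ and 23027, 17857 and 10724 in Control. The siYAP+TAZ libraries were above every library of siControl, siYAP and siTAZ but overlapped Control, and in each group the lowest value came from the run of libraries 26 to 30. The log2 fold change in siYAP+TAZ compared with siControl was 0.77 (SE 0.26, 95% interval 0.20 to 1.35), and the adjusted p of 0.064 did not pass. With DESeq2 and limma-voom on the same counts the adjusted p was 0.022 and 0.023. By edgeR with a block for the run of library numbers it was 0.0037, and with a library left out 0.072 to 0.18. Compared with Control the log2 fold change was 0.48 (adjusted p = 0.24). In the single knockdowns the log2 fold change was -0.03 in siYAP (95% interval -0.60 to 0.55, adjusted p = 0.99) and 0.11 in siTAZ (95% interval -0.46 to 0.69, adjusted p = 0.88).

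SPARC, fibulin-1 and osteopontin were present at low levels. SPARC, a collagen-binding protein also called osteonectin, had 13.6, 26.8 and 26.8 normalized counts in siControl, 27.6, 28.6 and 35.9 in siYAP, 25.0, 19.9 and 18.0 in siTAZ, and 32.1, 33.3 and 32.1 in siYAP+TAZ. The siYAP and siYAP+TAZ libraries were above every siControl library, but the log2 fold changes of 0.46 (SE 0.27, adjusted p = 0.54 by edgeR) and 0.55 (SE 0.27, 95% interval -0.02 to 1.11, adjusted p = 0.18) did not pass. FBLN1, whose protein joins fibronectin and laminin, had 92.7, 73.0 and 127.7 normalized counts in siControl. It ranged from 76.0 to 99.3 in siYAP, from 105.9 to 127.7 in siTAZ, from 84.9 to 94.5 in siYAP+TAZ and from 93.3 to 114.9 in Control, and all groups next to each other in order of level overlapped. Its log2 fold change in siYAP+TAZ was -0.13 (95% interval -0.52 to 0.27, adjusted p = 0.71). SPP1 had at most 7 reads in any library and 0 in all 3 Control libraries, which allows up to 3 reads in each, and no fold change is given for it.

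Of the 9 members, 4 passed an adjusted p of 0.05 in siYAP+TAZ compared with siControl, where 18.4% of all 18858 genes tested did. THBS2, THBS3 and TNC were higher, as were 9.97% of all genes, and THBS1 was lower, as were 8.39%. TNC and THBS2 also passed an absolute log2 fold change of 1, as did 3.46% of all genes. The 6 members THBS1, THBS2, THBS3, TNC, FN1 and SPARC had knockdown and siControl libraries that did not overlap, against 36.4% of all genes. The median log2 fold change was 0.77 over the 9 members, and also over the 7 members with a fold change, compared with 0.00 over all genes. All comparisons of a knockdown with siControl share the siControl libraries.

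With single knockdowns fewer members passed. In siYAP only THBS1 did, of 9 members and at a background of 0.933% of all genes, and 3 had an unadjusted p under 0.05, where 11.9% of all genes did. In siTAZ the 2 members TNC and THBS2 passed at a background of 2.03%, and 3 had an unadjusted p under 0.05 against 16% of all genes. siYAP+TAZ differed from siYAP in THBS2 at a background of 5.13%, with 3 members at an unadjusted p under 0.05 against 19.2% of all genes. It differed from siTAZ in no member by edgeR without a block at a background of 5.44%, although 4 members had an unadjusted p under 0.05 (19.3% of all genes) and DESeq2 called 1 and limma-voom 0. The difference nearest to the threshold there was THBS3 (log2 fold change of 0.73, SE 0.22, adjusted p = 0.060). siYAP and siTAZ themselves differed in 0 members at a background of 0.642%, with 3 at an unadjusted p under 0.05 (13.7% of all genes) and 0 by DESeq2 or limma-voom. The log2 difference of siYAP from siTAZ was -0.22 for THBS1 (SE 0.09, adjusted p = 0.29) and -0.93 for THBS2 (SE 0.33, adjusted p = 0.21), and neither passed in this fit without a block.

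**Figure D3:**
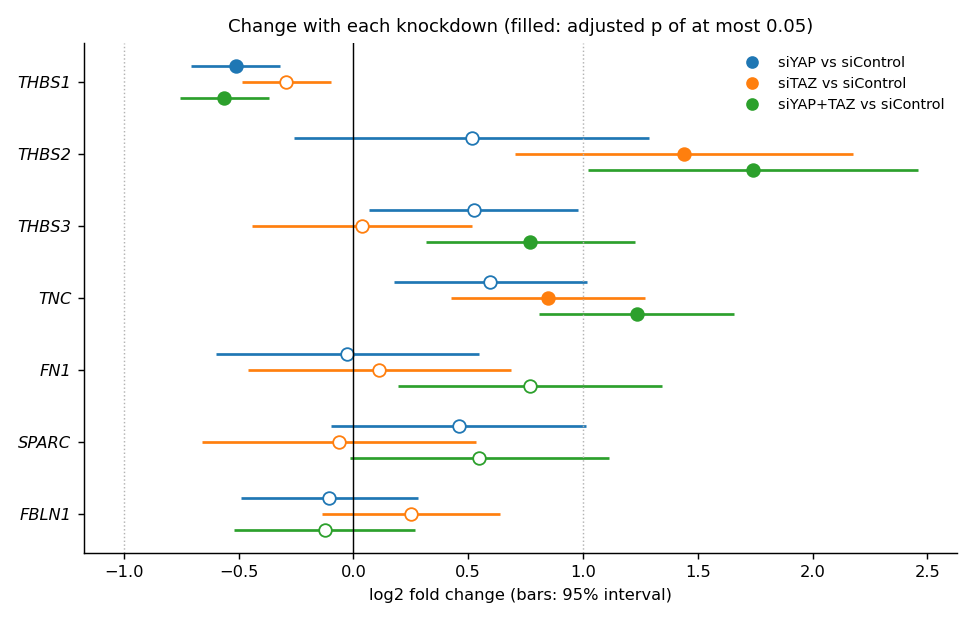
Log2 fold change of 7 members in siYAP, siTAZ and siYAP+TAZ compared with siControl, with 95% intervals from edgeR and filled points where the adjusted p was at most 0.05. THBS1 lies left of 0 and TNC right of 0 in all 3 comparisons, and FN1 lies near 0 in the single knockdowns and at 0.77 in siYAP+TAZ with an interval from 0.20 to 1.35.

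Whether the co-knockdown differed from the sum of the single knockdowns was tested as an interaction. The sum presumes that each target fell as far in the co-knockdown as alone. WWTR1 averaged 534 normalized counts in siTAZ and 1180 in siYAP+TAZ, without overlap. YAP1 averaged 1513 in siYAP and 2079 in siYAP+TAZ, with overlap. The interaction thus compares unequal knockdowns and cannot decide whether the effects of losing YAP and TAZ add up. No member passed by edgeR, 0 had an unadjusted p under 0.05 (5.85% of all genes), and DESeq2 and limma-voom also called 0, at a background of 0.0106% of all genes. For THBS1, where siYAP and siYAP+TAZ overlapped, the interaction was 0.24 (SE 0.13, 95% interval -0.03 to 0.52, adjusted p = 0.88). For FN1, where of the knockdowns only the siYAP+TAZ libraries lay wholly above siControl, it was 0.68 (SE 0.37, 95% interval -0.13 to 1.49, adjusted p = 0.89). For TNC it was -0.21 (SE 0.27, 95% interval -0.80 to 0.38, adjusted p = 0.96). The interval of FN1 thus reached from below 0 to above a log2 value of 1.

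Transfection itself was read from siControl compared with Control. No member passed by edgeR or by DESeq2 or limma-voom, and neither did any other gene by edgeR (0% called). At an unadjusted p under 0.05 there was 1 member, THBS3, against 2.11% of all genes. THBS3 was -0.61 in siControl relative to Control (SE 0.22, adjusted p = 1.0). This is the change that separates the results of THBS3 by the control chosen. THBS1 and TNC differed by -0.06 (95% interval -0.25 to 0.13) and -0.08 (95% interval -0.50 to 0.34) between the control groups. THBS2 differed by -0.60 (95% interval -1.40 to 0.20) and FN1 by -0.29 (95% interval -0.87 to 0.28). In siYAP+TAZ their log2 fold changes were 1.74 and 0.77 against siControl and 1.14 and 0.48 against Control.

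Library numbers run from 16 to 20, 21 to 25 and 26 to 30, with 1 library of each group in each run, and the study describes independent sets of experiments for its sequencing without saying which libraries form a set. Within each run, THBS1 in siYAP+TAZ was 0.634, 0.724 and 0.674 of siControl, and in siTAZ it was 0.801, 0.838 and 0.811. TNC in siYAP+TAZ was 2.21, 2.67 and 2.15 times siControl, in siYAP 1.55, 1.48 and 1.51 times, and in siTAZ 1.52, 2.17 and 1.71 times. These ratios kept their direction in all runs, and those of TNC in siTAZ spread the most. FN1 in siYAP+TAZ was 1.56, 1.94 and 1.62 times siControl, whereas in siYAP it was between 0.880 and 1.03 times. THBS2 ranged from 1.86 to 5.81 times in siYAP+TAZ and from 1.43 to 5.91 times in siTAZ, and its lowest ratios came from the run of siControl library 17.

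**Figure D4:**
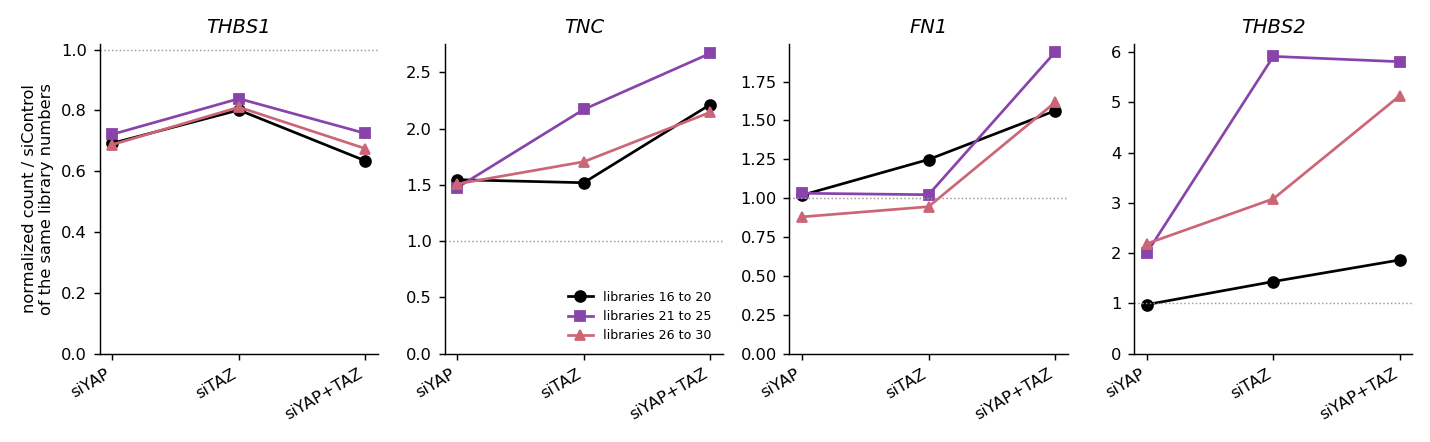
Normalized count of THBS1, TNC, FN1 and THBS2 in each knockdown divided by that of the siControl library of the same run of library numbers, with 1 line per run. THBS1 lies between 0.634 and 0.838 in every knockdown and run, and TNC between 1.48 and 2.67.

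Genes that followed the members most closely across all 15 libraries were sought among the 10639 other genes that averaged 100 or more normalized counts, for the 4 members that did so too. The points share libraries, group differences and depth, so these correlations of log2 CPM are given as descriptions. THBS1 was most like COL12A1, a collagen of the fibril surface (Pearson r = 0.95), SLC3A2, the heavy chain that pairs with integrins and amino acid transporters (r = 0.95), and CPLANE1, a ciliary protein (r = 0.95). TNC was most like CTSA, a lysosomal protease (r = 0.98), SEMA4B, a semaphorin (r = 0.97), and CDCP1, a transmembrane Src substrate (r = 0.97). FN1 was most like CELSR3, an atypical cadherin (r = 0.92), LAMA3, a laminin chain (r = 0.91), and TRIB1, a pseudokinase (r = 0.91). FBLN1, which passed in no comparison, had lower values with SDHA, CENPM and BARD1 (r of 0.85, 0.84 and 0.83). Between members, THBS1 and TNC had r = -0.63 and TNC and FN1 r = 0.62.

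The receptors of these proteins were read from a list of 18 genes, of which 14 were in the table. In siYAP+TAZ compared with siControl 6 of the 14 rose and none fell at an adjusted p of 0.05, where 9.97% of all genes rose and 8.39% fell, and the median log2 fold change was 0.26 compared with 0.00 over all genes. The 6 were ITGB8 and LRP1 and, named after their values were seen, ITGA5, ITGB5, CD47 and ITGAV. ITGB8, the beta-8 chain that with alpha-V activates latent TGF-beta, went from 48.3 to 61.2 normalized counts in siControl to 97.8 to 131.2 in siYAP+TAZ (log2 fold change of 1.04, SE 0.17, adjusted p = 3.0e-04 by edgeR). LRP1, an endocytic receptor that clears thrombospondins, went from 1929 to 2190 to between 3144 and 4750 (1.01, SE 0.30, adjusted p = 0.039), but this call was lost when any library other than siYAP+TAZ library 30 was left out, with an adjusted p of up to 0.12, and against Control (0.78, adjusted p = 0.098). ITGA5, the alpha chain of the fibronectin receptor, rose by 0.79 (SE 0.18, adjusted p = 0.0069), and CD47, a receptor of thrombospondin-1, by 0.39 (SE 0.07, adjusted p = 0.0012). ITGB5 and ITGAV rose by 0.44 and 0.30, and each call was lost without 3 of the 6 libraries in turn (ITGB5 without siControl library 22 or 27 or siYAP+TAZ library 25, with an adjusted p of up to 0.095, and ITGAV without siControl library 17 or siYAP+TAZ library 25 or 30, with an adjusted p of up to 0.066). Without siYAP+TAZ library 25 the count was 3 in place of 6. The most abundant receptors did not pass, with log2 fold changes of -0.01 for ITGA3, 0.14 for CD44 and 0.13 for ITGB1. In the single knockdowns edgeR called 0 of the 14, with 2 in siYAP and 5 in siTAZ at an unadjusted p under 0.05 (11.9% and 16% of all genes), while DESeq2 called 2 in each and limma-voom 0.

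Other matricellular proteins and relatives moved in both directions. Of 29 listed, 16 were in the table, and in siYAP+TAZ 5 rose and 4 fell, where 9.97% of all genes rose and 8.39% fell, with a median log2 fold change of 0.43. CCN1 and CCN2, matricellular proteins that are textbook targets of YAP and TAZ, were among those that fell. CCN1 had 49434, 47424 and 41766 normalized counts in siControl and 22835, 20816 and 18151 in siYAP+TAZ, without overlap (log2 fold change of -1.17, SE 0.12, adjusted p = 8.4e-06 by edgeR). CCN2 had 11460, 11174 and 9685 in siControl and 5979, 5710 and 4551 in siYAP+TAZ (-0.99, SE 0.17, adjusted p = 0.0011). EFEMP1, a fibulin named after its values were seen, fell by 0.95 on the log2 scale (SE 0.10, adjusted p = 4.8e-06), and FSTL1, a SPARC relative, by 0.50 (SE 0.15, adjusted p = 0.035), a call lost when any library other than siYAP+TAZ library 25 was left out (adjusted p of up to 0.14) and with library size only (adjusted p = 0.091). CCN1 and EFEMP1 also fell in siTAZ (-0.65 and -0.57, adjusted p of 0.011 and 0.0060).

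Those that rose were SPOCK1 and SPOCK3, proteoglycans of the SPARC family, HMCN1, a giant fibulin, TNXB, a tenascin, and TGFBI, a fasciclin-domain protein related to periostin. SPOCK3 went from 5.36 to 20.3 normalized counts in siControl to 45.9 to 62.3 in siYAP+TAZ (log2 fold change of 1.94, SE 0.39, adjusted p = 0.0017), and SPOCK1 from 10.7 to 26.4 to between 63.0 and 72.0 (1.69, SE 0.31, adjusted p = 8.3e-04). TNXB, at 39.7 to 68.4 in siControl and 114.7 to 227.7 in siYAP+TAZ, rose by 1.59 (SE 0.33, adjusted p = 0.0031), and HMCN1 by 1.47 (SE 0.27, adjusted p = 8.9e-04). These were low-count genes, as THBS2 was. TGFBI, named after its values were seen, was at 1572 to 2064 in siControl and 2555 to 3486 in siYAP+TAZ (0.75, SE 0.21, adjusted p = 0.028), a call lost without siControl library 17 or 22 or siYAP+TAZ library 30 (adjusted p of up to 0.099) and against Control (0.65, adjusted p = 0.051).

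Enzymes that cut or cross-link these proteins were read from a list of 12, with 9 in the table. In siYAP+TAZ 4 rose and none fell at an adjusted p of 0.05 by edgeR, where 9.97% of all genes rose and 8.39% fell, while DESeq2 and limma-voom each called ADAMTS1 lower, and the median log2 fold change was 0.33, or 0.26 over the 7 with more than 3 reads in a library of each group. MMP14, the membrane-bound collagenase of invadopodia, had 13367, 13642 and 14092 normalized counts in siControl and 23628, 26105 and 22859 in siYAP+TAZ (log2 fold change of 0.82, SE 0.10, adjusted p = 2.3e-05). BMP1, a procollagen protease named after its values were seen, rose by 0.66 (SE 0.09, adjusted p = 3.6e-05). Both also rose in siTAZ, by 0.62 (adjusted p = 0.0047) and 0.46 (adjusted p = 0.0091). The gelatinases MMP2 and MMP9 passed on few reads, 0 to 1 in siControl and 2 to 14 in siYAP+TAZ for MMP2 and 0 to 3 and 3 to 25 for MMP9, and no fold change is given for them. The count of enzymes that rose was 2 without siYAP+TAZ library 30 and 3 without siControl library 17, 22 or 27. TGM2, a cross-linker of fibronectin, and FURIN, a proprotein convertase, had log2 fold changes of -0.01 and 0.26 that did not pass.

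**Figure D5:**
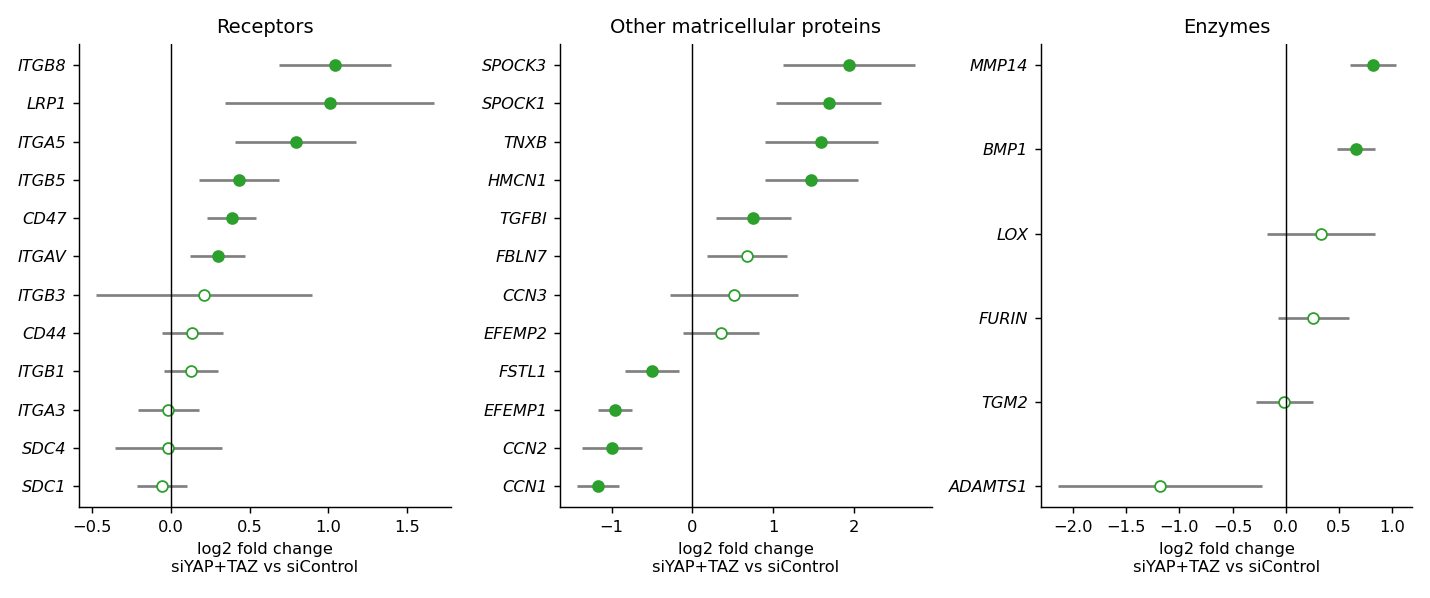
Log2 fold change in siYAP+TAZ compared with siControl, with 95% intervals from edgeR, of receptors, other matricellular proteins and enzymes averaging 10 or more normalized counts, filled where the adjusted p was at most 0.05. Called receptors lie right of 0, whereas CCN1, CCN2, EFEMP1 and FSTL1 lie left of 0 and SPOCK1, SPOCK3, TNXB, HMCN1 and TGFBI right of it.

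Several of these proteins are best known as products of fibroblasts, so fibroblast markers were read in the same libraries. Of 7 markers 4 were in the table, and PDGFRA, DCN and FAP had no row. LUM stayed at or below 0.302 CPM in every library, with 3 to 4 reads in siControl and 1 to 2 in siYAP+TAZ. The summed level of the 4 was 14.1 to 18.5 CPM in Control, 14.0 to 23.5 in siControl, 20.7 to 23.3 in siYAP, 21.6 to 36.4 in siTAZ and 28.2 to 34.5 in siYAP+TAZ. Most of it was COL1A1, and without that gene the sum was 3.65 to 4.82 CPM in Control, 2.91 to 4.31 in siControl, 4.50 to 6.91 in siYAP, 4.26 to 8.33 in siTAZ and 7.72 to 12.1 in siYAP+TAZ, so that the siYAP and siYAP+TAZ libraries lay above every siControl library. PDGFRB, a growth factor receptor of mesenchymal cells, was the 1 marker of the 4 that passed in siYAP+TAZ (log2 fold change of 1.60, SE 0.29, adjusted p = 9.9e-04 by edgeR), while COL1A1 had a log2 fold change of 0.42 (SE 0.22, adjusted p = 0.22). ACTA2, the smooth muscle actin of myofibroblasts, had 14.8 to 18.7 normalized counts in siControl, 24.4 to 39.8 in siTAZ and 21.5 to 38.1 in siYAP+TAZ, without overlap with siControl, and 25.0 to 26.0 in Control. Its log2 fold changes of 0.80 in siYAP+TAZ (SE 0.28, adjusted p = 0.051) and 0.77 in siTAZ (SE 0.28, adjusted p = 0.16) did not pass. The group means of PDGFRB were 64.9 normalized counts in siControl, 107.6 in siYAP, 117.7 in siTAZ and 194.4 in siYAP+TAZ, and those of ACTA2 were 17.2, 17.9, 29.7 and 30.2, both in the same order as the means of TNC, whereas COL1A1 was highest in siTAZ and LUM lowest in siYAP+TAZ. The part of these markers in the results was not tested.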

How the data were processed

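RNA of 15 libraries of MDA-MB-231 cells, 3 in each of 5 groups set by the sample names, was analysed. Libraries were made from polyadenylated RNA and sequenced as single reads. The authors trimmed reads with cutadapt within the UTAP pipeline, and aligned and counted them per gene with STAR (2.4.2a in the submitters' processing notes) on GRCh38. They deposited raw counts, a normalized signal (counts divided by DESeq2 size factors) and rlog values on the log2 scale. The deposited comparison columns (log2 fold changes, p-values and adjusted p-values of pairs of groups) were not used. Tests used the deposited counts, and 2 cells written in scientific notation, in genes other than those reported, were read as the rounded number they give.

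Counts were normalized by TMM and tested over all 18858 genes with edgeR 4.0.16 in R 4.3.3 (robust quasi-likelihood, 1 coefficient per group, no block) and Benjamini-Hochberg adjustment over all genes. A gene was called at an adjusted p of at most 0.05. Standard errors were taken from the F statistic. A normalized count is the count divided by the TMM-scaled library size relative to the mean library. TMM factors lay between 0.943 and 1.03. Genes with at most 3 reads in every library of a group got no fold change. The study describes independent sets of experiments, without saying which libraries form a set, and p-values measure the spread between the libraries of a group. On simulated counts of 18858 genes for siYAP+TAZ compared with siControl, edgeR recovered 192 of 200 changed genes and called 13 unchanged ones. How often a gene with the level and fold change of each member would be recovered was not tested.

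The members and gene lists were chosen with earlier results of these data known. Named genes were all members, list genes past both thresholds (adjusted p and a log2 fold change of 1 or more in size) in siYAP+TAZ, the 3 most abundant genes of each list, the 3 genes most like each member averaging 100 or more normalized counts, and the siRNA targets. Gene positions and exon lengths came from GENCODE 44, in which 15574 genes (82.6%) were found by name, and promoters from RefSeq. Alternatives were DESeq2 1.42.0, limma-voom (limma 3.58.1), DESeq2 size factors, library size only, edgeR's filterByExpr, only the groups compared, Control as reference, a block for the run of library numbers, and leaving out each library.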

Additional observations from a re-analysis of the deposited data

How the results depend on the processing

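In siYAP+TAZ compared with siControl the count of members called was 4 and stayed between 3 and 5 under the other settings and between 3 and 4 with a library left out, and the count past both thresholds was 2 under the other settings and 2 to 3 with a library left out. THBS1, THBS2 and TNC kept their direction and their call in every fit of that comparison, the fits against Control included. In siYAP compared with siControl the count of 1 became 2 with DESeq2, with the replicate block and with only the groups compared, in each case by TNC (adjusted p of 0.042, 0.027 and 0.031), and ranged from 0 to 1 with a library left out. In siTAZ compared with siControl the count of 2 (THBS2 and TNC) became 3 with the replicate block, which added THBS1 (log2 fold change of -0.29, adjusted p = 0.0054), 1 by library size only (THBS2), 1 with Control as reference (THBS1, with THBS2 and TNC lost) and 0 with only the groups compared, and ranged from 0 to 2 with a library left out. In siYAP+TAZ compared with siYAP the count of 1 became 3 with DESeq2, limma-voom and the replicate block and 2 with only the groups compared, and was 0 in every fit with a library left out. In siYAP+TAZ compared with siTAZ the count of 0 became 1 with filterByExpr and DESeq2, in both by THBS3, and 3 with the replicate block. In siYAP compared with siTAZ the replicate block gave 1 (THBS1, adjusted p = 0.044). For FN1 in siYAP+TAZ the adjusted p was 0.044 with filterByExpr, 0.0037 with the replicate block and 0.0015 with only the groups compared.

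The related lists were tested under the same settings, an addition chosen after seeing the data. Receptors called higher numbered 3 to 5 with a library left out. Enzymes called higher numbered 2 with filterByExpr and 2 to 4 with a library left out, and enzymes called lower numbered 1 (ADAMTS1) with DESeq2, limma-voom, the replicate block or Control as reference. Of the single fold changes of members with a library left out, 358 kept their side of the threshold and 20 lost the call, and under the other settings 384 kept it, 23 gained and 6 lost it. None reversed, and the 34 that changed sign were called in neither fit. Group means of the 7 members compared moved by less than 1 SD with DESeq2 size factors. The cause of these changes was not tested.

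The run of library numbers was used as the block. Deviations from the group means of libraries of the same run correlated at a median r of 0.47 over 30 pairs, from -0.07 to 0.72, and 26 of the 30 were over 0.1, so that the runs did not meet the requirement for paired samples that every pair does. The pairs that were not all held siTAZ library 24 (r of -0.05, -0.04, 0.03 and -0.07 with libraries 21, 22, 23 and 25). Over 60 pairs of different runs the median r was -0.40, from -0.66 to 0.53, and 18 were over 0.1. With 3 libraries a group, members below about 50 normalized counts (THBS2, SPARC, THBS4, SPP1) have wide errors. The abundant FN1 had a wide error too, with an SE of 0.26 in siYAP+TAZ compared with siControl, where SPARC had 0.27 and THBS3 0.22. For all of these an adjusted p above the threshold does not show that levels were equal.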
